A study of Mus musculus with 14 samples.

Results

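The enzyme genes of betaine, choline, sarcosine and serine metabolism were followed through the liver arrays, chosen by name or older synonym. They were Pemt, Chkb, Chdh, Bhmt, Dmgdh, Sardh, Shmt1 and Shmt2, 8 of 272 mouse genes on the array, measured by 9 of 284 mouse oligonucleotides because Chdh has 2. The mice were C57BL/6 and 15 to 20 weeks old. Of these, 7 had the genotype written mthr-/-, which the labels leave unexplained, and 7 were wild type. The homozygous animals drank water with 2% (w/v) betaine, started 5 weeks after weaning, so the effects of genotype and of betaine cannot be told apart. The mthr-/- group held 4 females and 3 males, and the wild type group 2 females and 5 males. One-colour arrays of spotted oligonucleotides were used, 1 for each animal, with liver as the labelled tissue and primary hepatocytes, the main metabolic cells of the liver, as the labelled cell type. Slide names in the labels fall into 4 series. Series A held 4 mthr-/- arrays and 1 wild type array, and series B held 2 mthr-/- and 4 wild type arrays. The last mthr-/- array was alone in series D, and the remaining 2 wild type arrays made up series C.

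Choline either enters phospholipid or is oxidised. Chkb phosphorylates choline at the start of one route to phosphatidylcholine, and Pemt makes phosphatidylcholine by methylating phosphatidylethanolamine, a route best known from the liver. In the oxidative route Chdh, a mitochondrial enzyme, starts the conversion of choline to betaine, an osmolyte and methyl donor, and Bhmt passes a methyl group from betaine to homocysteine, which yields methionine and dimethylglycine. Dmgdh and Sardh, both mitochondrial, then remove the remaining methyl groups one after the other through sarcosine to glycine, and Shmt1 in the cytosol and Shmt2 in mitochondria interconvert glycine and serine.

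The start regions of 3 genes are shown because Bhmt and Sardh, high on the same arrays in the data below, can be set beside Dmgdh, which acts between them. Each window runs from 250 bases before to 50 after the RefSeq transcript start in assembly GRCm38.p6, 5′ to 3′ on the gene's strand. Bhmt lies at chr13:93637709-93638008 on the minus strand, Dmgdh at chr13:93674186-93674485 on the plus strand and Sardh at chr2:27247254-27247553 on the minus strand. Capitals mark AGGTCA or its reverse complement TGACCT, a half-site of nuclear receptors.
Bhmt: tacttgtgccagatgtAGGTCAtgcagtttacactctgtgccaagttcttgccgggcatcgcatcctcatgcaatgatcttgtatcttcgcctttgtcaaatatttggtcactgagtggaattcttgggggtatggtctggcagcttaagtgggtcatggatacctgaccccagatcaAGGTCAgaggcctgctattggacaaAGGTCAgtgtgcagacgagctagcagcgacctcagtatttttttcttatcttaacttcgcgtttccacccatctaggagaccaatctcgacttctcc
Dmgdh: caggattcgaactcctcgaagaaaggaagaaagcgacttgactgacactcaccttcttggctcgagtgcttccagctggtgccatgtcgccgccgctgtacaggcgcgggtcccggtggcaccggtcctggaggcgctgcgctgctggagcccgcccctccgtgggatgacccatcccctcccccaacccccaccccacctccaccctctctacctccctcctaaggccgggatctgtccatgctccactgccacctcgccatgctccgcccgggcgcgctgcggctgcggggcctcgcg
Sardh: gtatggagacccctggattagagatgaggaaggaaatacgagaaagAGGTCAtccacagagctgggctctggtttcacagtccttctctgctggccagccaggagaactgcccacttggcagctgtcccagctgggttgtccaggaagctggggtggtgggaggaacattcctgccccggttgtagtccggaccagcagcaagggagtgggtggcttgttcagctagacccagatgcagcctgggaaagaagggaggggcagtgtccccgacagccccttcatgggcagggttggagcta
The letters occur 3 times in the Bhmt window, once in that of Sardh and 0 times in that of Dmgdh, and 16.3% of 32851 mouse windows hold them. The motif was picked after the windows had been read, so the matches are a description only. All 8 genes had a window, 11 windows in all, and the half-site was in none of the other 8. CpG dinucleotides numbered 8 in the Bhmt window, 25 in that of Dmgdh and 4 in that of Sardh. On chromosome 13 the next protein-coding gene between Bhmt and Dmgdh in the RefSeq table was Bhmt2, a relative of Bhmt.

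Signal differed widely between arrays. The sum of background-subtracted intensity over all mouse genes' spots ranged from 16029 to 82510 on mthr-/- arrays and from 14443 to 56948 on wild type arrays. An oligonucleotide counted as above background where it exceeded the mean plus 2 SD of the plant control spots on that array, a limit between -0.207 and 9.81. Between 123 and 186 did so on mthr-/- arrays, and 70 to 155 on wild type arrays. Wild type 6 had the 70. The 134 genes above background on at least 7 of 14 arrays were tested, and all 8 enzyme genes were among them. All 6 hepatocyte markers on the array were tested. Their summed intensity ran from 2988 to 26995 on mthr-/- arrays and from 996 to 12202 on wild type arrays. The 5 stellate cell and fibroblast markers summed to 27.2 to 539 and 23.8 to 161, and the 6 oligonucleotides of endothelial markers to 6.27 to 86 and -7.43 to 28.2, in the same order of genotypes. The 5 oligonucleotides of muscle markers reached 804 on mthr-/- 6 and 246 on wild type 6. Macrophage and blood markers were not analysed here. The marker sums are not normalized. Fewer cells of a type, less RNA per cell and a dimmer array cannot be told apart in them.

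Levels are given per gene as log2 normalized intensity, after a background correction that adds 50 and draws the values and differences of dim genes together. Oligonucleotides differ in how brightly they bind, so the level of one gene is not set against that of another. Over all 8 genes limma called none between the genotypes, against a background of 0% of 134 genes, and the smallest adjusted p was 0.579. None of the 8 had an unadjusted p below 0.05, against 10 of 134 genes (7.46%). In mthr-/- 5 of the 8 were higher and 3 lower, with a median difference of 0.053. Over all tested genes 66 of 134 (49.3%) were higher and the median was -0.0043. The groups overlapped for every one of the 8 genes, as for all 134.

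**Figure D1:**
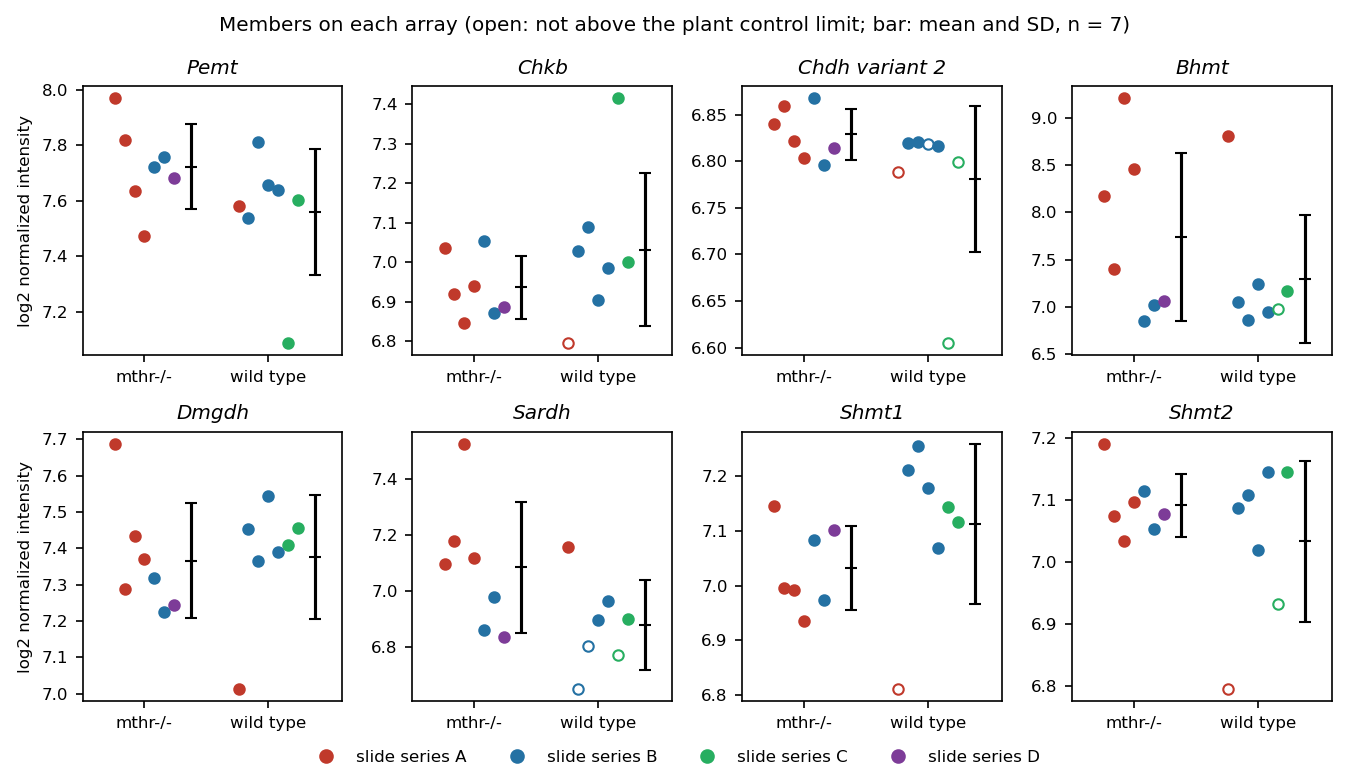
Log2 normalized intensity (vertical axis) of the 8 enzyme genes on each array, mthr-/- on the left and wild type on the right of each panel; each panel has its own scale. Colours mark the slide series, open points are not above the plant control limit, and bars give mean and SD (n = 7). Bhmt is high on the 5 series A arrays of both genotypes, and wild type 1 is the lowest array for Chkb, Dmgdh, Shmt1 and Shmt2.

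Of the enzymes that put choline into phospholipid, Pemt was above background on all arrays. Its level was 7.48, 7.72 and 7.97 (lowest, median and highest) on mthr-/- arrays and 7.09, 7.60 and 7.81 on wild type arrays. The lowest wild type value came from wild type 6, with an intensity of 11, where the other wild type arrays had 37.1 to 160. The means were 7.72 ± 0.15 in mthr-/- and 7.56 ± 0.23 in wild type (SD, n = 7 each). The difference was 0.16 (SE 0.10, 95% interval -0.052 to 0.38, limma adjusted p = 0.579), and 0.085 without wild type 6. Chkb stood at 6.85, 6.92 and 7.05 on mthr-/- arrays and at 6.80, 7.00 and 7.41 on wild type arrays, whose range enclosed that of mthr-/-. It was highest on wild type 6 and lowest on wild type 1, where its intensity of 2.25 was under the limit of 7.03. The difference was -0.095 (SE 0.078, 95% interval -0.26 to 0.073, limma adjusted p = 0.669), and -0.031 without wild type 6. Blocking on slide series turned it to 0.028 (SE 0.088).

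Within an array the pair stood apart on wild type 6. Chkb minus Pemt averaged -0.79 ± 0.14 in mthr-/- and -0.53 ± 0.39 in wild type (SD, n = 7 each). It was 0.33 on wild type 6, against -0.78 to -0.51 on the other wild type arrays. These differences describe how the pair shifted between arrays, not which of the enzymes had more transcript.

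Chdh, which starts choline oxidation, was measured close to background. Its brighter oligonucleotide, for transcript variant 2, was above background on 7 mthr-/- arrays and 3 wild type arrays. Its intensity was 3.27, 7.25 and 22 (lowest, median and highest) in mthr-/- and -10.5, 2.75 and 6.75 in wild type. The limit differed between arrays, and some values lay close to it. Wild type 2 passed at 0.325 against -0.207 and mthr-/- 6 at 8.5 against 8.40, while wild type 7 failed at 6.25 against 6.81. The counts above background thus do not show a genotype difference. The log2 levels averaged 6.83 ± 0.03 and 6.78 ± 0.08 (SD, n = 7 each), in the order mthr-/- and wild type. The difference was 0.048 (SE 0.036, 95% interval -0.031 to 0.13, limma adjusted p = 0.641). It was 0.019 without wild type 6, where 1 of the 4 spots read -57. The second oligonucleotide, for variant 1, was above background on 1 mthr-/- array and 1 wild type array and was not among those tested. Its intensities ran from -173 to 12.7 in mthr-/- and from -20 to 4.75 in wild type.

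Bhmt, the betaine-consuming enzyme, varied more between animals than the other 7 genes. Its intensity on mthr-/- 1 to 7 was 273, 52.5, 1531, 370.5, 2.95, 70 and 30. On wild type 1 to 7 it was 213, 9.5, 8, 34, 27.5, 8 and 65.2. The 5 arrays of series A, 4 mthr-/- and 1 wild type, hold most of the high values, and the wild type array among them is higher than 6 of the 7 mthr-/- arrays on the normalized scale. Log2 levels were 6.85, 7.40 and 9.21 (lowest, median and highest) on mthr-/- arrays and 6.86, 7.05 and 8.81 on wild type arrays. The means were 7.74 ± 0.89 and 7.30 ± 0.68 (SD, n = 7 each), in that order of genotypes. The difference was 0.44 (SE 0.40, 95% interval -0.42 to 1.31, limma adjusted p = 0.675). Leaving out mthr-/- 3 gave 0.20 and leaving out wild type 1 gave 0.69.

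The median SD between the spots of Bhmt on an array was 0.075, and the SD between the 14 animals was 0.79. The widest spot spread, 0.48, was on mthr-/- 3, where the spots read 1060 to 2176. It was 0.43 on mthr-/- 4 and 0.33 on wild type 1, also arrays of series A. Spots of 1 array do not show the error of labelling or hybridisation. Spot SDs were taken before quantile normalization and animal SDs after it. They are on unlike scales, so how much wider the animal spread is cannot be read from them. Chkb, with spot and animal SDs of 0.035 and 0.15, and Pemt, with 0.13 and 0.20, had narrower animal spreads.

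With slide series as a block the Bhmt difference turned to -0.24 (SE 0.29, limma adjusted p = 0.879). Within series A, 4 mthr-/- arrays averaged 8.31 and the 1 wild type array 8.81, a difference of -0.50. Within series B, 2 mthr-/- arrays averaged 6.94 and 4 wild type arrays 7.03, a difference of -0.092. The mthr-/- mean was the lower one in both series.

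Between slide series, with genotype in the model, Bhmt was higher in series A than in series B by 1.53 (SE 0.29, limma adjusted p = 0.0151). The comparison of series was chosen with earlier results of these data known. Bhmt ranged from 7.40 to 9.21 in series A and from 6.85 to 7.25 in series B, without overlap. Limma called 7 of 134 genes (5.22%) here, 6 of them higher in series A (4.48%), and 1 of the 8 enzyme genes. The call was lost without wild type 1 (1.37, adjusted p = 0.211), the only wild type array of series A, and without mthr-/- 5 (1.54, adjusted p = 0.0930). It was also lost with median centring (1.26, adjusted p = 0.688) and cyclic loess (1.13, adjusted p = 0.0770). Hepatocyte markers summed to 5880 to 26995 in series A and 2988 to 22258 in series B. Muscle markers summed to 14.8 to 45.8 and -0.225 to 804, in the same order of series. Their part in the difference was not tested.

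**Figure D2:**
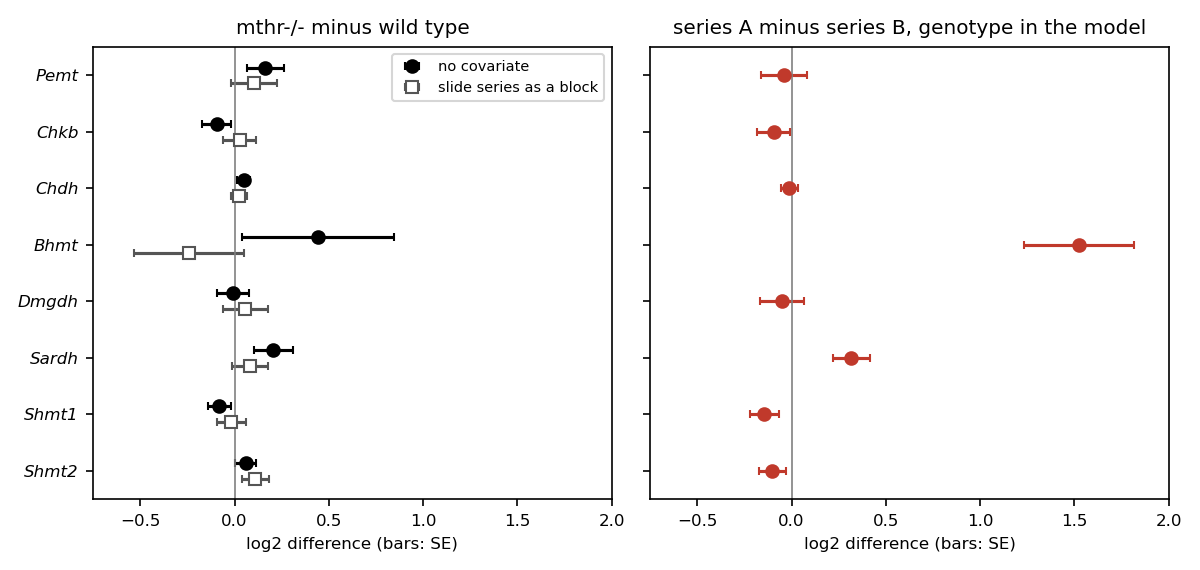
Log2 differences of the 8 enzyme genes with SE bars: left, mthr-/- minus wild type without a covariate (filled) and with slide series as a block (open); right, series A minus series B with genotype in the model. Bhmt moves from 0.44 to -0.24 with the block and stands at 1.53 between the series.

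Dmgdh, which takes dimethylglycine from the Bhmt reaction to sarcosine, was above background on all 14 arrays. It stood at 7.22, 7.32 and 7.69 (lowest, median and highest) on mthr-/- arrays and at 7.01, 7.41 and 7.54 on wild type arrays. The means were 7.37 ± 0.16 and 7.38 ± 0.17 (SD, n = 7 each), and the ranges overlapped from 7.22 to 7.54. The difference was -0.0092 (SE 0.086, 95% interval -0.19 to 0.18, limma adjusted p = 0.932). Leaving out single arrays moved it between -0.070 and 0.019, and with slide series as a block it was 0.058 (SE 0.12). Between series A and series B it was -0.051 (SE 0.12). Bhmt minus Dmgdh on the same array was 0.11 to 1.79 in series A and -0.50 to -0.21 in series B. Bhmt alone already separated these series without overlap, so the split is not a trait of the pair. Chdh minus Bhmt split them too, at -2.38 to -0.54 in series A and -0.43 to 0.013 in series B.

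Sardh, which converts sarcosine to glycine, was above background on 7 mthr-/- arrays and 4 wild type arrays. Its intensity on mthr-/- 1 to 7 was 42, 32.8, 325, 65.2, 3.12, 61 and 7.75. On wild type 1 to 7 it was 33, -4.8, 3.75, 7.5, 29.8, 0.75 and 21. Mthr-/- 3 was the brightest array for both Sardh and Bhmt, and wild type 1 was the brightest wild type array for both. Log2 levels averaged 7.09 ± 0.23 in mthr-/- and 6.88 ± 0.16 in wild type (SD, n = 7 each). The difference was 0.21 (SE 0.10, 95% interval -0.017 to 0.43, limma unadjusted p = 0.0677, adjusted p = 0.579), and 0.13 without mthr-/- 3. No other of the 8 genes had a smaller unadjusted p. With slide series as a block it was 0.082 (SE 0.097), with 0.071 within series A and 0.090 within series B. All 5 series A arrays, at 7.10 to 7.52, lay above all 6 series B arrays, at 6.65 to 6.98. That difference was 0.32 (SE 0.097) and did not pass the limma test (adjusted p = 0.0757). Non-overlap with series A higher was found for 9 of 134 genes (6.72%), among them Bhmt and Sardh, and with series A lower for 4 (2.99%), none of them among the 8.

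Shmt1, the cytosolic enzyme of serine and glycine, stood at 6.94, 7.00 and 7.15 (lowest, median and highest) on mthr-/- arrays and at 6.81, 7.14 and 7.26 on wild type arrays. The lowest of all was wild type 1, where its intensity of 3.75 was under the limit of 7.03. The difference was -0.080 (SE 0.063, 95% interval -0.22 to 0.055, limma adjusted p = 0.653), and -0.13 without wild type 1. Shmt2, its mitochondrial counterpart, averaged 7.09 ± 0.05 in mthr-/- and 7.03 ± 0.13 in wild type (SD, n = 7 each). Again wild type 1 was lowest, at 6.80 with an intensity of 2.25. The difference was 0.058 (SE 0.054, 95% interval -0.058 to 0.17, limma adjusted p = 0.675), and 0.019 without wild type 1. On the same array Shmt1 minus Shmt2 averaged -0.060 ± 0.057 in mthr-/- and 0.079 ± 0.11 in wild type (SD, n = 7 each), with overlapping ranges of -0.16 to 0.023 and -0.077 to 0.21. The 0.21 came from wild type 6, where Shmt2 at 6.75 was under the limit of 9.81, and on wild type 1 both genes were under the limit.

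The authors' deposited table compares medians of scaled intensity, a measure unlike the normalized levels above. It lists 103 oligonucleotides, among them 7 of the 8 enzymes without Chdh, and its mthr-/- medians leave out mthr-/- 7. Its Bhmt medians are 95.2 in mthr-/- and 15.2 in wild type, a ratio of 6.27. For Sardh the authors' deposited table has 25.5 in mthr-/- and 7.78 in wild type, a ratio of 3.28. The other ratios in the authors' deposited table are 1.57 for Shmt2, 1.37 for Pemt, 1.24 for Dmgdh, 0.997 for Chkb and 0.770 for Shmt1.

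For Bhmt the deposited value table behind those medians has a blank cell for wild type 1, while the array file of that animal has a scaled mean of 191.75. With that value in place, the series A ratio was 0.836, from an mthr-/- median of 160 over 4 arrays against 191.75 on the 1 wild type array. In series B the ratio was 0.845, from medians of 12.8 over 2 mthr-/- arrays and 15.2 over 4 wild type arrays. Those 2 mthr-/- arrays had 4.38 and 21.3, on either side of the wild type median, so the ratio gives no firm direction. Taken over all wild type arrays and mthr-/- 1 to 6, the ratio was still 6.16 with the value in place. Of the 6 arrays behind the mthr-/- median 4 were of series A, and of the 6 behind the wild type median 4 were of series B. Of 21 blank cells in the deposited value table, 4 are on wild type 1. Those 4 are Bhmt at 192, the urea cycle gene Cps1 at 176, the transsulfuration gene Cbs at 69.5 and the lysosomal protein gene Psap at 66.8 in the array file. For each of them that value is higher than the median of the other wild type arrays. The reason for the blanks is not stated. For Sardh, whose cells are all filled, the ratio was 1.12 in series A and 2.28 in series B. In series A the ratio was 7.58 for Shmt2, 6.24 for Shmt1, 6.10 for Chkb, 3.65 for Dmgdh and 1.48 for Pemt. In series B the ratios were 1.33, 0.690, 0.948, 0.844 and 1.08, in the same order of genes. Every series A ratio rests on wild type 1 alone, which is the lowest array for Shmt2, Shmt1, Chkb and Dmgdh.

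**Figure D3:**
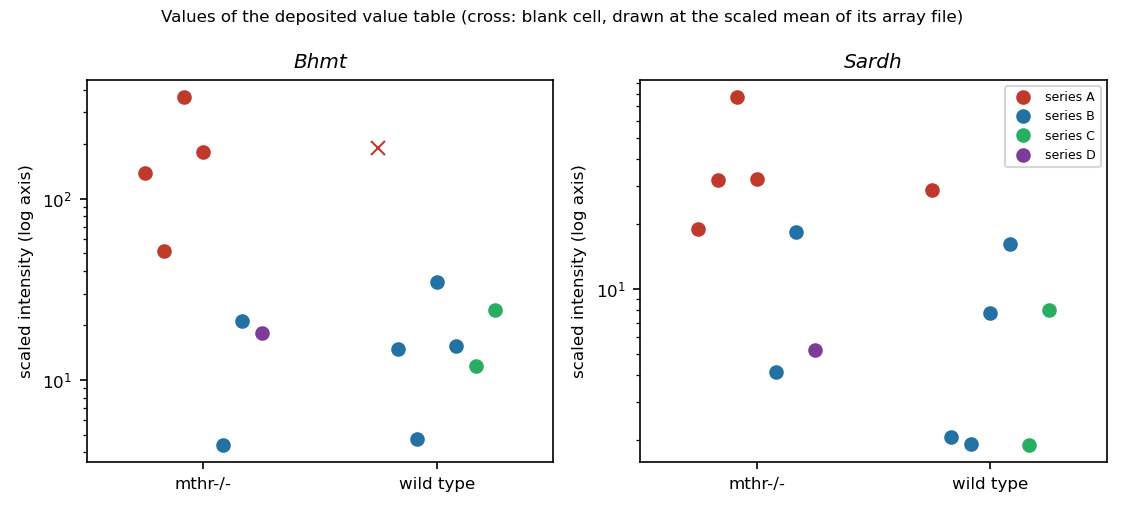
Scaled intensity (log axis) of Bhmt and Sardh on each array in the deposited value table, mthr-/- on the left and wild type on the right, coloured by slide series. The cross is the blank Bhmt cell of wild type 1, drawn at the 191.75 of its array file, inside the range of the 4 mthr-/- arrays of series A.

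Co-variation was examined for all 28 pairs of the 8 genes, and over 14 arrays Bhmt with Sardh and Pemt with Chdh, 2 pairs, passed by Pearson r. By Spearman rho Bhmt with Sardh and Sardh with Shmt1 passed. Of 8911 pairs of tested genes, 0.628% had a Pearson r at least as high as that of Bhmt with Sardh. The share was 0.539% for Pemt with Chdh, and 6.03% for Dmgdh with Shmt1, which did not pass. For Sardh with Shmt1, whose Pearson r was negative, 95.2% of all pairs had an r at least as high. How many of all pairs would pass the permutation tests was not computed, so the counts of passing pairs have no background. For Bhmt and Sardh the 5 series A arrays lay above the other 9 on the normalized scale, so no correlation over all arrays is given. Outside series A the 9 arrays gave a Pearson r of 0.11 (exact permutation p = 0.784, adjusted p = 0.915) and a Spearman rho of 0.12 (exact permutation p = 0.776, adjusted p = 0.869). The genes were thus high together in series A, and no relation was detectable among the remaining arrays. Among these, Sardh was not above the limit on wild type 2, 3 and 6, nor was Bhmt on wild type 6. Such dim values limit what the 9 arrays can show. Outside series A 0 of 28 pairs passed the exact permutation test. With genotype and slide series taken out of all 14 arrays, Bhmt and Sardh had an r of 0.57 (permutation adjusted p = 0.144).

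**Figure D4:**
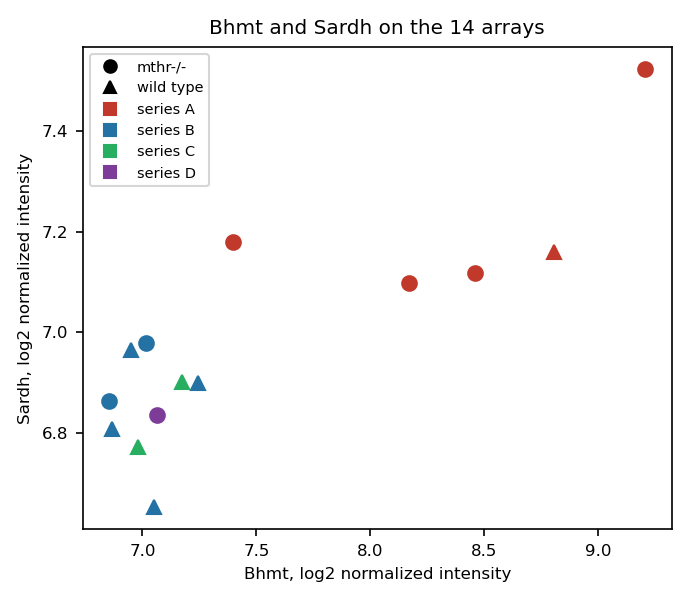
Log2 normalized intensity of Bhmt (horizontal) against Sardh (vertical) on the 14 arrays, circles for mthr-/- and triangles for wild type, coloured by slide series. The 5 series A arrays lie at Bhmt 7.40 to 9.21 and Sardh 7.10 to 7.52, above all others on both axes.

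Pemt and Chdh had an r of 0.85 over 14 arrays (permutation p = 0.00252, adjusted p = 0.0353) and a rho of 0.62 (permutation p = 0.0196, adjusted p = 0.0914). Without wild type 6 and mthr-/- 1, the arrays farthest from the median of Pemt, r was 0.50, and within series B it was 0.024. It was 0.64 without wild type 6, mthr-/- 1 and mthr-/- 6, 0.47 within mthr-/- and 0.94 within wild type. Both genes are lowest on wild type 6, where the Chdh intensity was -10.5 with 1 of its 4 spots at -57. In deviations from genotype and slide series r was 0.73 (permutation adjusted p = 0.0454). Deviations of wild type 6 and wild type 7, the only arrays of series C, mirror each other. The 14 deviations are thus not freely exchangeable, and the permutation p-values for deviations can be too small. Dmgdh and Shmt1 had an r of 0.66 (permutation p = 0.0105, adjusted p = 0.0764) and a rho of 0.60 (permutation p = 0.0276, adjusted p = 0.110). It was 0.67 within series B, 0.60 outside series A, and 0.45 without wild type 1 and mthr-/- 1. In deviations it was 0.84 (permutation adjusted p = 0.0101), where mthr-/- 7, alone in its series, counts as 0. The third pair to pass in deviations was Dmgdh with Shmt2, at 0.70 (permutation adjusted p = 0.0454), which was -0.11 outside series A. Sardh and Shmt1 ran against each other, with an r of -0.74 within series B and -0.71 outside series A (exact permutation p = 0.0326, adjusted p = 0.389), and a rho of -0.75 outside series A (exact permutation p = 0.0255, adjusted p = 0.621). In deviations their r was -0.33 (permutation adjusted p = 0.537), and within mthr-/- it was -0.42. The median r over the 28 pairs was 0.069, against -0.0096 over 8911 pairs of tested genes. An r above 0 was found for 17 of the 28, against 49.3% of all pairs.

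**Figure D5:**
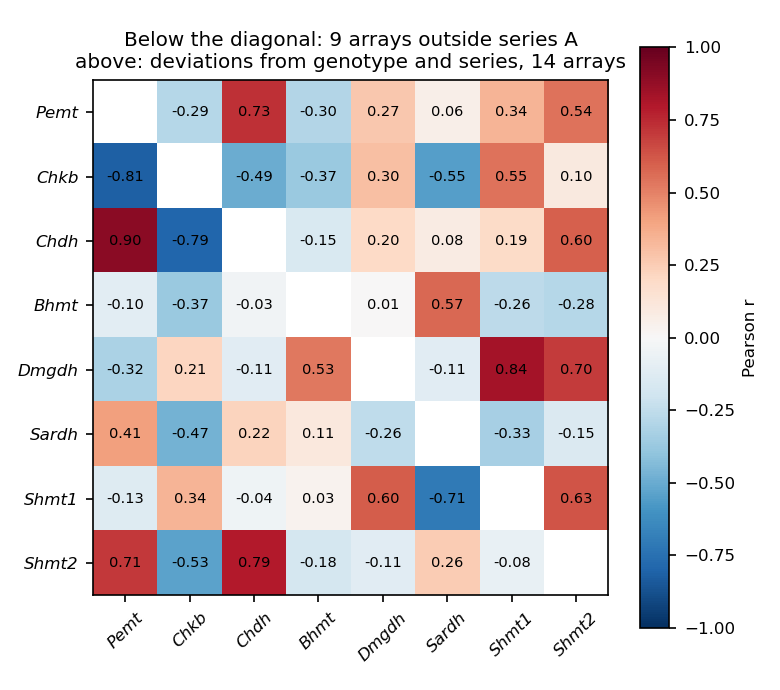
Pearson r between the 8 enzyme genes in chain order: below the diagonal over the 9 arrays outside series A, above it over 14 arrays after removing genotype and slide series. Dmgdh and Shmt1 stand at 0.60 below and 0.84 above, Bhmt and Sardh at 0.11 and 0.57.

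Among all 134 tested genes, the patterns most like each enzyme's over the 14 arrays are given by Pearson r as a description. The arrays share slide series and scaling. Bhmt was most like the adenosine kinase gene Adk (0.95), the amino acid carrier gene Slc38a4 (0.94) and Cps1 (0.90). Sardh was most like Slc38a4 (0.90), Adk (0.89) and Ahcy (0.87), and Adk and Slc38a4, which lead both lists, were higher in series A by 0.21 and 0.35. Chkb was most like Htra2 (0.95), Dbi (0.94) and Ndufs3 (0.87), and Pemt, beside Chdh, like Sord (0.81) and Mst1 (0.78). Chdh, beside Pemt, was most like Alb (0.81) and Sord (0.71). Among the genes most like Dmgdh were Shmt1 (0.66) and the bile acid carrier gene Slc10a1 (0.66). Shmt1 was most like Baat (0.82), Mat2b (0.81) and Aifm1 (0.77), and Shmt2 like Sod1 (0.87), Mst1 (0.81) and Pon1 (0.77).

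Around the chain, lists of 57 further genes of the methionine cycle, folate, glycine and serine, choline and osmolyte transport had 21 genes on the array and 12 tested. Limma called 0 of the 12, 8 were higher and 4 lower in mthr-/-, and 1 had an unadjusted p below 0.05. Among those with the smallest p were Ahcy, which splits S-adenosylhomocysteine, at 0.54 (SE 0.18) and the water channel gene Aqp8 at -0.14 (SE 0.085), both with a limma adjusted p of 0.579. The methionine cycle list had 5 of 6 tested genes higher with a median difference of 0.11, and the osmolyte carriers 3 of 5 with a median of 0.0053. Ahcy, which uses up the product of methylation reactions such as that of Pemt, was also higher in series A than in series B, by 0.58 (limma adjusted p = 0.0389).

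No sex difference was called among the 8 genes. Adjusted for genotype, limma gave 0 calls between 6 females and 8 males, against 0% of 134 genes, and 0 had an unadjusted p below 0.05, against 2.24%. Bhmt averaged 7.47 ± 0.67 in females and 7.55 ± 0.92 in males (SD, n = 6 and 8), a modelled difference of -0.23 (SE 0.43). A genotype by sex term called 0 of the 8, against 0% of 134 genes, with 0 at an unadjusted p below 0.05, against 1.49%. With 2 wild type females the errors of that term are wide, 0.91 for Bhmt.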

How the data were processed

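Liver RNA was labelled by oligo-dT primed cDNA synthesis with 1 dye, per the labels' protocols, and hybridised to spotted oligonucleotides. Per the file headers, each deposited array file gives spot and local background intensity for 4 spots per oligonucleotide, with columns scaled by the authors. The authors' deposited comparison table holds medians and the log10 of their ratio, per the file headers. For the scanner, the software and the scaling, the sources used here give no detail. The deposited value table is linear and uncentred, and it equals the mean scaled intensity of the array files within 1 unit on 12 arrays. How wild type 5 and mthr-/- 7 were made is unknown.

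Background was corrected by normexp (offset 50) and spots were quantile normalized with limma 3.58.1 in R 4.3.3. Spots blanked by the authors and a block that repeats another on mthr-/- 1 were left out. The limit came from 16 spots of 4 plant oligonucleotides per array. A gene was represented by its brightest oligonucleotide. Limma (lmFit, eBayes, two-sided) was run on 134 genes with Benjamini-Hochberg adjustment at 0.05. Correlations used 100000 permutations, or all of them for 9 arrays, two-sided and adjusted over 28 pairs. Those outside series A were added after seeing the data. Outlying arrays and alternatives are in the closing section. Procedures were tested on simulated data. Animal numbers did not pair the arrays: same-number correlations ran from -0.23 to 0.35, and 4 of 7 were over 0.1. The number of arrays limits precision.

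Named genes are all 8 enzymes, the 3 genes of smallest p from the pathway lists, and the 3 most similar genes per enzyme. Results for some genes that this rule names are not reported here. Other names were chosen after values were seen. Members, lists and the comparison of slide series were chosen with earlier results of these data known. Gene names and start regions are from RefSeq tables (GRCm38.p6). No per-sample column was unmapped (0).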

Additional observations from a re-analysis of the deposited data

Results flagged for a closer look

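Among 16 groups of 7 arrays, 5 held an array far from the other 6, where chance gives about 1 in 20 groups. All 5 came from wild type 1 or wild type 6. The groups share arrays and are not independent, so the 1 in 20 does not test the 5. On wild type 1 Bhmt was high at 8.81, with the next wild type array at 7.25, while Dmgdh was low at 7.01 (next 7.36) and Shmt1 low at 6.81 (next 7.07). The Shmt1 intensity there, 3.75, was under the limit of 7.03, and the Bhmt intensity was 213. On wild type 6 Pemt was low at 7.09 (next 7.54) and Chdh at 6.60 (next 6.79). The Chdh intensity on wild type 6 was -10.5, the mean of 4 spots that ran from -57 to 8. With 1 spot at -57, the value shows no low level.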

How the results depend on the processing

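For genotype, 0 of the 8 enzyme genes passed under any alternative run, and the count over all genes was 0 except 1 without normalization. The median of all genes shifted by 0.82 without normalization and by 0.47 with reference gene centring, and all 8 genes were then above 0. Chkb was at 0.77 and 0.42, Dmgdh at 0.72 and 0.37, and Shmt1 at 0.72 and 0.37 under those settings. Median centring gave Pemt -0.079 and Shmt2 -0.0063, with 3 of 8 above 0. Slide series as a block gave Bhmt -0.24, Chkb 0.028 and Dmgdh 0.058. Without 1 array at a time Dmgdh ran from -0.070 to 0.019. An offset of 0 gave larger differences for dim genes, 0.46 for Sardh and 0.17 for Chdh. A fit with the replicate block called 0 genes (smallest adjusted p = 0.476), with 9 at an unadjusted p below 0.05, and changed no call. The deposited value table, with its blank Bhmt cell, gave 0.87 for Bhmt (limma adjusted p = 0.459).

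Between series A and B, 7 genes passed, but 0 with median centring or cyclic loess, where 0 of the enzyme genes passed. Bhmt was then at 1.26 and 1.13. Pemt turned to 0.12 and 0.0038, and Dmgdh and Shmt2 to 0.063 and 0.023 with median centring. Without 1 array at a time 1 to 13 genes and 0 to 1 enzyme genes passed. The counts were 13 without mthr-/- 1, 1 without mthr-/- 5 or wild type 1, and 3 without wild type 2, 3, 4 or 5. Bhmt ran from 1.36 to 1.72, Dmgdh from -0.15 to 0.17, Pemt from -0.091 to 0.0077, Chdh from -0.033 to 0.0024 and Shmt2 from -0.16 to 0.014. Without wild type 6, mthr-/- 1 and mthr-/- 6, a choice made after seeing the data, 16 genes passed. Sex called 0 genes with slide series as a block. Pairs of enzymes past the threshold over 14 arrays numbered 2, with 10 under median centring and 3 in deviations from genotype and slide series. In deviations the permutation p can be too small. The causes of these changes were not tested. Dim spots near background limit several of the enzyme genes. Of 14 arrays, Chdh was above the limit on 10, Sardh on 11, Shmt2 on 12, and Bhmt, Chkb and Shmt1 each on 13.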
